A study of Mus musculus with 18 samples.

Results

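DNA methylation in the hypothalamus of young male mice was compared between animals whose mothers received bisphenol A (BPA) during pregnancy and animals whose mothers received corn oil alone. The comparison covered 1336542 CpG sites, out of 1687641 listed for hypothalamus and 5339994 rows listed for hypothalamus, gonadal adipose tissue and liver together. These are the sites on chromosomes 1 to 19 with at least 20 reads in both pools, leaving out a stretch of ribosomal RNA copies on chromosome 17. Sites no more than 100 bp from their neighbour were joined into 279156 units, of which 99038 held a single CpG and 132683 held 3 or more, with 85.5% of all CpGs.

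All animals were inbred C57BL/6 males taken at 3 weeks of age. Pregnant females were dosed by gavage each day from day 1 to day 20 after conception, with 5 mg BPA per kg in corn oil or with the vehicle only, and the offspring came from 4 BPA litters and 3 control litters. Each group had 3 hypothalamus samples, made from 100 ng of DNA each. The adipose and liver groups have the same numbers of litters. The tissues may thus share litters or animals, and agreement between them cannot be read as independent. Reduced representation bisulfite sequencing cuts DNA at CCGG with MspI and reads the methylation of single CpGs in the CpG-rich fragments. What was deposited is 1 pooled value per group and CpG, made from its 3 samples, so no value here has an error between animals, and the tests compare pooled reads, not treatments. The pools are numbered 0 and 1, and 0 was read as control because a label names control before BPA. No label states that numbering, and every direction below would turn if it were the reverse.

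The hypothalamus is a small region at the base of the brain whose neurons regulate feeding, body temperature, stress responses, reproduction and the daily rhythm, largely through neuropeptides and through hormones released to the pituitary. Oestrogen and androgen receptors act in it around birth, when circuits that differ between the sexes form, and BPA is a plasticizer with weak oestrogen-like activity. CpG methylation is usually near 0 at active CpG-rich promoters and high in most of the remaining genome. The DNA came from the whole tissue, so a different mix of cells and a different level within the same cells cannot be told apart.

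Of the 300-base windows around RefSeq gene starts (GRCm38.p6, 250 bases before the start and 50 after it), those of 2 genes held a CpG that passed the test described below. They are printed 5′ to 3′ on the plus strand with the CpGs measured in hypothalamus in capitals, beside the window of Pomc, the precursor of the appetite-suppressing peptide alpha-MSH, as a central feeding gene without such a CpG.
Tmem267, chr13:119487836-119488135: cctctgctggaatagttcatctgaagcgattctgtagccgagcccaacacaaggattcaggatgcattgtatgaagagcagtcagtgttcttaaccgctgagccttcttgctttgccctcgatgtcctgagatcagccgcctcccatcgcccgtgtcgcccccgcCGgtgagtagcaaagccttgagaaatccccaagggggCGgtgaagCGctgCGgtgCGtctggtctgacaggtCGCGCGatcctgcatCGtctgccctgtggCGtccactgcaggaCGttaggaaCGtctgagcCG
4930442E04Rik, chr19:59171531-59171830: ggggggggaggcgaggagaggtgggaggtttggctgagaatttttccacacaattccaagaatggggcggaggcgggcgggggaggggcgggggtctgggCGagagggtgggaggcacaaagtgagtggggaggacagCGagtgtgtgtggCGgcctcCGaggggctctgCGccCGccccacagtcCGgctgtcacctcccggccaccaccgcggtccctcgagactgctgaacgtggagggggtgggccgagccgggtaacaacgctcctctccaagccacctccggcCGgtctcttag
Pomc, chr12:3954695-3954994: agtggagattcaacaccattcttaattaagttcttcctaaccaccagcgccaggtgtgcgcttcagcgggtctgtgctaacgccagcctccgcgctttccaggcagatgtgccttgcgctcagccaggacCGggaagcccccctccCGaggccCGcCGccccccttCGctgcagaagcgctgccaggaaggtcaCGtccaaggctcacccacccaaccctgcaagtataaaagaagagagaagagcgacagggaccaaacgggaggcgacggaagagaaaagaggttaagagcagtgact
The Tmem267 window held 22 CpGs, of which 13 were measured, and all 13 were lower in the BPA pool, with 5 passing the test. Of these 5, only the CpG at chr13:119488134 passed when p-values were adjusted over the compared CpGs alone. In the window of 4930442E04Rik, a long noncoding RNA, 8 of 22 CpGs were measured, and in that of Pomc 6 of 18. The CpG that passed the test in the 4930442E04Rik window did not pass with that narrower adjustment. The MspI site CCGG occurred 1, 5 and 1 times in these windows, and at least once in 52.8% of the 32851 windows in the table.

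The hypothalamus libraries were the shallowest of the series. A member CpG was covered by a median of 121 reads in the control and 126 in the BPA pool, and coverage summed over CpGs came to 199955557 and 211929390 reads. In adipose, the corresponding medians were 171 and 195 reads, and in liver 165 and 152. The control levels were also set beside lists of marker genes. Of 15 neuron marker genes, 10 had their lowest level in hypothalamus among the 3 control pools (median 19.7%, against 26.8% in adipose and 26.8% in liver), as did 6 of 9 astrocyte genes. Only 1 of 10 hepatocyte genes and 2 of 11 adipocyte genes were lowest in hypothalamus. The oligodendrocyte, microglia, endothelial and ependymal lists had 5 of 11, 2 of 12, 1 of 11 and 1 of 8 genes lowest there, and the pituitary list 3 of 6. Lists of other genes, described below, ranged from 4 of 13 (hormones that act on the pituitary) to 28 of 36 (imprinted genes), with 14 of 20 clock genes. The neuron and astrocyte counts lie within that range, so they are not particular to markers and do not check the tissue label.

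The mean methylation level was 49.3% in the control and 49.4% in the BPA pool. The difference, 0.0541 percentage points, was positive on each of the 19 chromosomes, from 0.0135 on chromosome 15 to 0.118 on chromosome 12. Rescaling the levels of each pool to take out the level of its nearly unmethylated CpGs turned the sign of the difference, to -0.102 points. Levels were bimodal in both pools: 40.6% of CpGs lay under 20% in each, while 41.3% of control levels and 41.1% of BPA levels lay over 80%. The median absolute difference was 1.65 points for a CpG and 1.21 points for a unit of 3 or more CpGs, and 2351 such units (1.77%) differed by 10 points or more.

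The small mean difference combined higher levels at unmethylated DNA with lower levels at partly methylated DNA in the BPA pool. CpGs were sorted by their mean level in the 4 pools of adipose and liver, so that no hypothalamus value chose them. Where that level was under 1%, 317350 CpGs averaged 0.568% in the control and 0.974% in the BPA pool. The difference, 0.406 points, was positive on 19 of 19 chromosomes. In the class from 1% to 5% the difference was 0.452 points, again positive on 19 of 19. At 10% to 20% it was -0.0056 points, with 10 chromosomes higher and 9 lower. Between 40% and 60%, 72494 CpGs averaged 60.2% and 59.6%, a difference of -0.513 points, and 19 of 19 chromosomes were lower in the BPA pool. The classes from 60% to 80% and from 80% to 90% were also lower on 19 of 19, with differences of -0.336 and -0.162 points. Above 95% the difference was -0.0256 points.

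**Figure D1:**
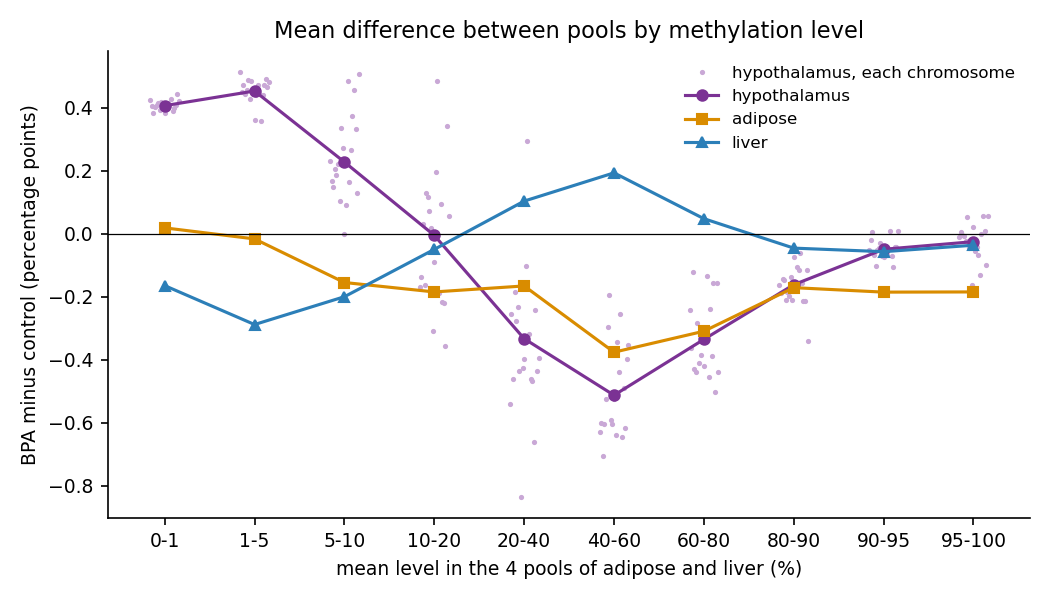
Mean difference between pools (BPA minus control, percentage points) against the mean level of the CpG in the 4 pools of adipose and liver, for 3 tissues; small points are the 19 chromosomes in hypothalamus. Hypothalamus runs from 0.406 points in the lowest class to -0.513 points at 40% to 60%, while adipose is within 0.02 points of 0 in the 2 lowest classes and liver is below 0 there.

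The other tissues gave other curves with the same CpGs, which also served to sort them there. In adipose the lowest class differed by 0.0182 points and the class from 40% to 60% by -0.376 points. In liver the corresponding values were -0.165 and 0.193 points, opposite in sign to hypothalamus in both classes. The difference between tissues in these class means was not tested, as there is 1 pool per group.

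Nearly unmethylated CpGs were examined more closely. At 145741 member CpGs with under 1% in each of the 4 pools of adipose and liver, 0.457% of control reads and 0.850% of BPA reads were methylated, 1.86 times as much. The difference was 0.393 points overall and ranged from 0.369 to 0.423 points over the 19 chromosomes. Of these CpGs, 76665 were higher and 32888 lower in the BPA pool, and the share without any methylated read was 57.9% in the control and 35.5% in the BPA pool. The share with a level of 5% or more was 0.727% and 0.994%. The shift was present at each depth: CpGs with a mean of 20 to 49 reads had 0.545% and 0.932%, and those with 200 or more had 0.445% and 0.839%. CpGs chosen in the same way for adipose had 0.453% and 0.454% there, and those for liver 0.754% and 0.576%. Mitochondrial DNA, which is outside the autosomal sites, moved with this result. Over its 13 CpGs 0.524% of control reads and 1.01% of BPA reads were methylated in hypothalamus, against 1.14% and 1.18% in adipose and 0.776% and 0.597% in liver. The share of cytosines that escape bisulfite conversion in each library was not analysed here, and its part in the shift was not tested.

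The same shift shaped the profile of gene starts. In the 250 bases after a RefSeq gene start, 120156 CpGs averaged 3.99% in the control and 4.42% in the BPA pool, 0.430 points higher. In the 250 bases before a start the difference was 0.405 points. From 1500 to 1750 bases after a start, where the control level had reached 38.8%, it was -0.0123 points. CpGs over 5000 bases from any start averaged 69.9% and 69.8%. Gene starts on chromosome 18 were not used for this profile.

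**Figure D2:**
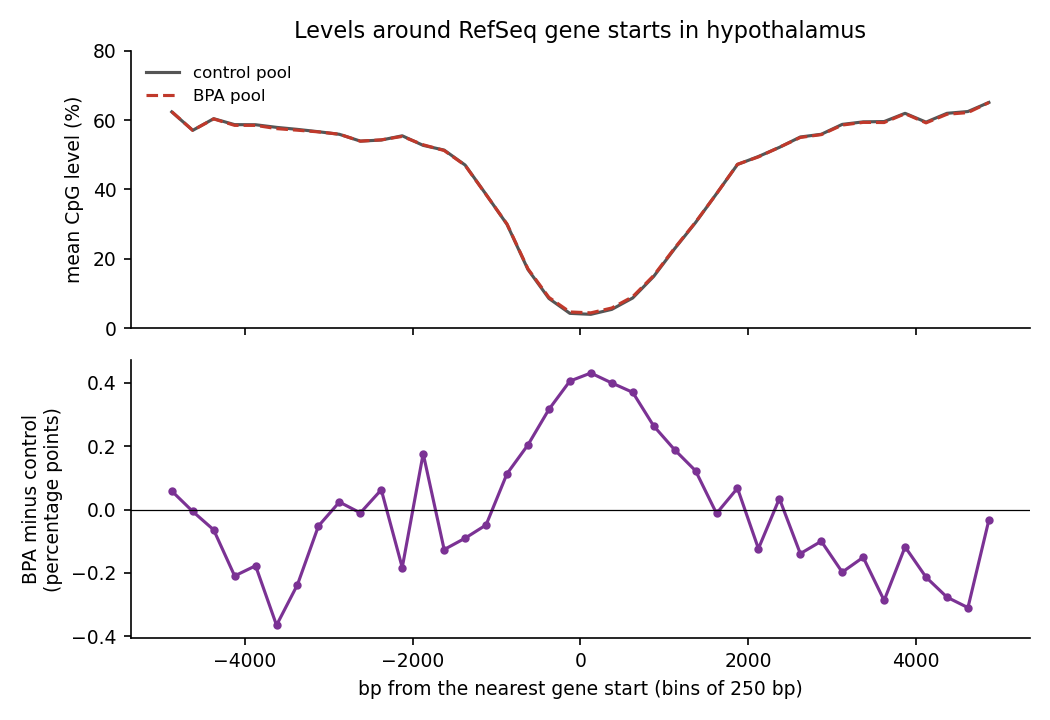
Mean CpG level in the control and BPA pools (top, %) and their difference (bottom, percentage points) in bins of 250 bp by distance from the nearest RefSeq gene start in hypothalamus. The level falls to 3.99% after the start in the control pool, and the difference peaks there at 0.430 points.

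Single CpGs were tested with Fisher's exact test on methylated and unmethylated reads, with Benjamini-Hochberg adjustment across every nuclear CpG. A CpG was called where the adjusted p was below 0.05 and the pools were 5 points or more apart. This called 58 CpGs, or 0.00434% of those tested, of which 26 (0.00195%) were higher and 32 (0.00239%) lower in the BPA pool. The adjustment also took in chromosomes X and Y and the ribosomal stretch, where 19 CpGs were called. Its limit of 0.05 thus does not hold for the member CpGs taken alone. Adjusting over the member CpGs alone left 28, 15 higher and 13 lower, those with a Fisher p up to 2.54e-06. Scaling the test by the excess of squared differences over counting error left 25, 15 higher and 10 lower. Without a minimum difference 112 passed (0.00838%), 80 of them higher (0.00599%). The median absolute difference of the 58 was 16.1 points. Their depth was above the usual: the smaller pool had a median of 279.5 reads, and 13 of the 58 lay among the 15639 CpGs with 500 or more reads in both pools.

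Hypothalamus had fewer called CpGs than the other tissues at the same sites. Of the 1275322 CpGs with 20 reads in all 6 pools, 58 (0.00455%) were called in hypothalamus, 8328 (0.653%) in adipose and 397 (0.0311%) in liver. The squared difference between pools averaged 1.16 times the counting variance in hypothalamus, 2.02 times in adipose and 1.22 times in liver. This left an extra spread between pools of 1.73, 3.01 and 1.72 percentage points (SD). Hypothalamus and liver were close only in this average. At 50 or more reads in all 6 pools they had 1.44 and 1.58 points. By level class, hypothalamus was above liver under 1% (0.556 against 0.183) and below it at 40% to 60% (3.03 against 3.43). Pools of 3 samples each cannot divide this spread into treatment and differences between animals.

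The 58 called CpGs fell in 36 units, 19 with their leading CpG higher and 17 lower. In 30 of these units other CpGs were measured too, 187 in all, of which 131 differed in the direction of the called CpG and 41 in the other. In 19 of the 30 every other CpG went the same way. Gene bodies held 30 of the 58 (51.7%, against 67.7% of all member CpGs). Within 5 kb of a gene lay 9 (15.5%, against 12.2%), and 19 lay farther away (32.8%, against 20.0%). These shares rest partly on few places, as 4 units held 26 of the 58. Among the gene-body CpGs, 9 and 8 were neighbours in the stretches of Tmem267 described below, and 6 of those near a gene were in a unit on chromosome 6. At joint levels of 20% to 80% lay 35 of them (60.3%, against 17.9% of member CpGs). None lay under 5%, where 36.4% of member CpGs lay, but the minimum difference of 5 points leaves little room for a call there. The contrast by level thus follows in part from the rule for calling.

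The units with called CpGs usually differed less in the other tissues. Over the 36 units the median difference was 9.67 points in the hypothalamus direction in hypothalamus, 0.749 points in adipose and 1.41 points in liver, with 21 and 27 of the 36 in the same direction. These units were chosen by their hypothalamus values, so smaller values elsewhere would arise from the choice alone. A Wald test that set the log odds ratios of 2 tissues against each other, adjusted over both tissues and all 36 units, was below 0.05 for 15 units against adipose and 10 against liver, counts that the choice of the units raises too.

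**Figure D3:**
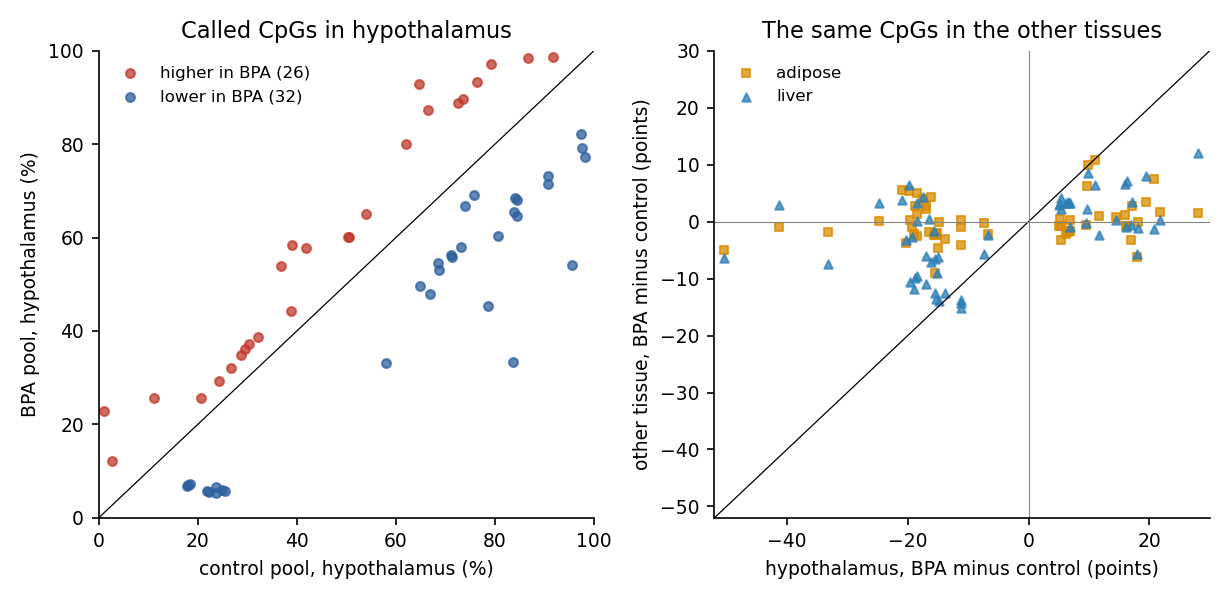
Left, methylation level (%) of the 58 called CpGs in the control and BPA pools of hypothalamus; right, the difference (BPA minus control, points) of the same CpGs in hypothalamus against adipose or liver, with the line of equal difference. Most points on the right lie nearer to 0 for adipose and liver than for hypothalamus. The few liver points farther from 0 belong to the Tmem267 start, as at chr13:119488073 with -15.2 points in liver and -11.2 in hypothalamus.

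The largest cluster of called CpGs lay at the start of Tmem267, a gene for a predicted membrane protein, inside 3110070M22Rik, a long noncoding RNA gene that overlaps it. The unit chr13:119488001-119488169 held 17 CpGs from 85 bases before to 82 after the Tmem267 start given by RefSeq, 13 of them in the first printed window. Read-weighted methylation was 19.7% in the control and 7.20% in the BPA pool, at a mean of 208 and 254 reads per CpG (95% Newcombe interval of the difference -19.1 to -6.45 points, counting error only). Over the 17 CpGs, control levels ran from 14.98% to 25.5% and BPA levels from 5.34% to 11.4%, and each CpG was lower in the BPA pool. They are neighbours that share reads, so they are not replicates of a pool. Of these CpGs, 9 were called, and those at chr13:119488134, chr13:119488145 and chr13:119488168 stayed called when adjusted over member CpGs alone. The deepest of the 17, at chr13:119488088, had 18.1% of 353 reads in the control and 7.02% of 413 in the BPA pool. Its adjusted Fisher p was 0.018. As CpGs of a fragment share reads, the unit was also tested as 1 item with its mean depth, which gave an adjusted p of 0.633, while summing the reads of its CpGs gave 9.06e-57.

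In liver all 17 CpGs of this stretch were lower in the BPA pool as well, with differences from -20.7 to -6.04 points and -13.0 points for the unit. The test of the difference from hypothalamus gave an adjusted Wald p of 0.594 with mean depth and 0.0093 with summed reads. Adipose gave another picture, with 7 CpGs lower and 10 higher and -0.805 points for the unit. Its difference from hypothalamus gave an adjusted Wald p of 0.017 with mean depth and 4.48e-34 with summed reads. In adipose the 7 CpGs up to 11 bases before the start were the lower ones, and the CpGs from 9 bases before it to 82 after it were higher.

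A second stretch inside Tmem267, chr13:119488749-119489108, held 26 CpGs, all of them lower in the BPA pool and 8 called. Its level was 70.0% in the control and 63.6% in the BPA pool at mean depths of 858 and 856 reads, and with the same weight for a CpG in both pools it differed by -7.74 points. The differences ran from -19.0 points at 787 bases after the start to -1.03 points at 714 bases, where the control level was only 2.74%. In liver 26 of 26 CpGs were lower too, with a median difference of -7.65 points. In adipose 23 of 26 were lower, with a median of -2.06 points over all 26. Of the 8 called CpGs in hypothalamus, those at chr13:119488899 and chr13:119488926 were not called when adjusted over member CpGs alone. The unit test gave an adjusted p of 1.

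**Figure D4:**
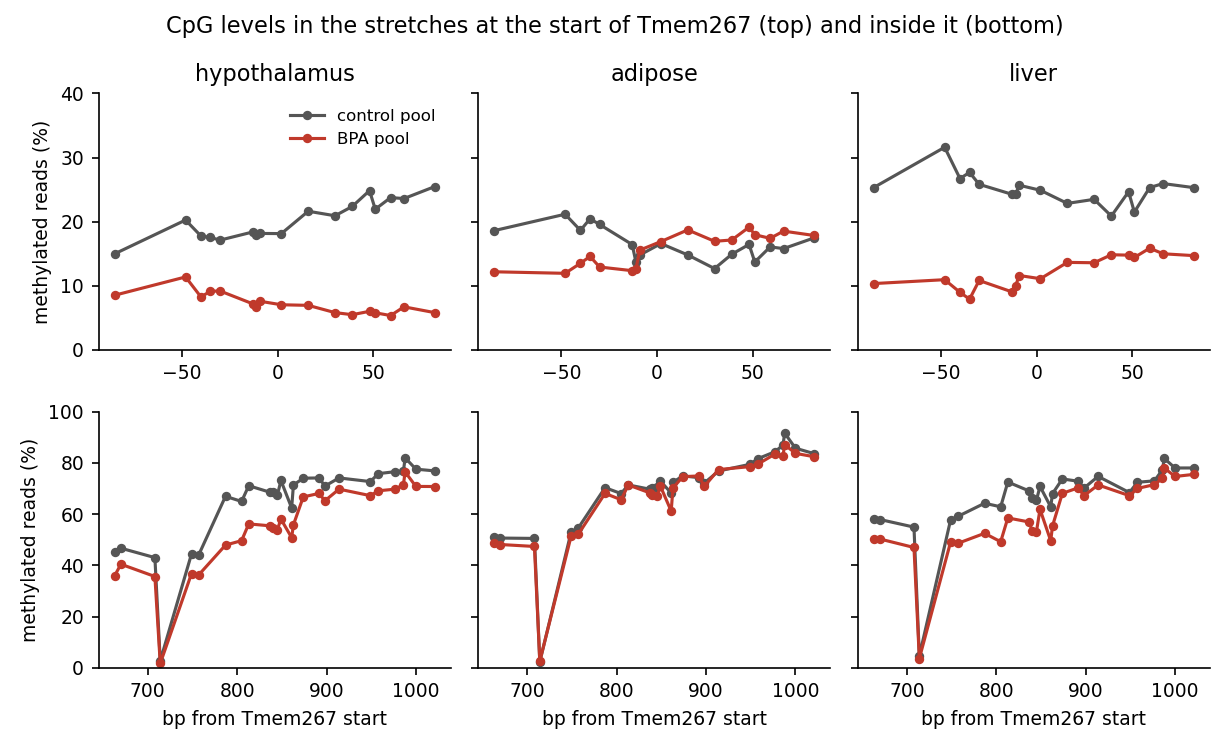
Methylation level (%) of each CpG against its distance (bp) from the Tmem267 start, in the stretch at the start (top, 17 CpGs) and the stretch inside the gene (bottom, 26 CpGs), for control and BPA pools of 3 tissues. The BPA pool is lower at each CpG of the top stretch in hypothalamus and liver, and the pools cross in adipose.

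As whole units, only 1 of 279156 (0.000358%) was called by Fisher's exact test. It was a single CpG at chr8:99598463 inside A330008L17Rik, a long noncoding RNA, methylated in 86.7% of 195 control reads and 98.4% of 247 BPA reads (adjusted p = 0.030 by Fisher's exact test, interval of the difference 6.95 to 17.3 points). Adipose differed by 1.05 points and liver by -2.32 points at this CpG. The call was lost when p-values were adjusted over member units alone, and when CpGs up to 200 bp apart were joined. Counting each read once per CpG instead of once per unit called 1905 units, 693 higher and 1212 lower. The number of called units thus depended on how far neighbouring CpGs are taken to share reads. Over the units, the squared difference between pools averaged 0.783 times the variance that the unit test assumes, so that test was strict.

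Of all units, 6 (0.00215%) had an adjusted p under 0.05, each of them higher in the BPA pool (0.00215%). The 5 beside the called one were higher in the BPA pool by less than 5 points, and 4 of them belonged to the deepest 0.1% of units. The deepest of them, chr6:3201422-3201577, lies within 5 kb of the pseudogene Gm19064 and had 23.2% of a mean of 20604 reads in the control and 27.8% of 23030 in the BPA pool, with 16 of 16 CpGs higher. The unit chr16:57391199-57391687 in Cmss1 and Filip1l was at 19.1% and 22.7%, with 29 of 33 CpGs higher. Units at chr15:86194878-86194973 (25.2% to 29.8%, 7 of 7 CpGs) and chr1:167340194-167340369 (21.7% to 25.1%, 14 of 15 CpGs) did likewise. The 4 differed in adipose by -2.23, -2.18, -0.113 and -2.29 points, and in liver by 2.67, 2.59, 2.93 and 2.71 points. The median depth of a unit was 117 and 120 reads, and the part of the high depth in these results was not tested. The fifth unit, chr18:85697997-85698307, had 24.8% and 29.2% at mean depths of 4707 and 4877 reads, although 12 of its 15 CpGs were lower in the BPA pool, and its reads lay mostly on the 3 others (98.4% of them).

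A pair of units on chromosome 12, over 5 kb from any gene, were higher in all 3 tissues. The unit chr12:20231545-20231839 had 48.8% in the control and 57.6% in the BPA pool of hypothalamus at mean depths of 975 and 1061 reads, with 11 of 11 CpGs higher and 3 of them called. It was higher by 7.48 points in adipose and 5.45 points in liver. The neighbouring unit chr12:20231342-20231363 differed by 8.17 points in hypothalamus, 7.52 in adipose and 2.93 in liver. As units, neither passed the test in hypothalamus (adjusted Fisher p = 0.680 and 1).

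Among units of at least 3 CpGs outside the deepest 0.1%, the 20 with the smallest unit p, 10 in each direction, were listed. They include both Tmem267 stretches, the pair on chromosome 12 and the unit on chromosome 18 described above. The 10 higher units differed by 4.37 to 31.4 points and the 10 lower ones by -6.42 to -21.0 points, and all CpGs of the unit went the same way in 8 and 10 of them. Apart from the unit on chromosome 18, the unit test called none of the 20 below an adjusted p of 0.05. Higher units lay in Ptpn22, a phosphatase of lymphocytes (38.6% to 60.8%, at 132 and 120 mean reads), in Pkp4, a protein of cell junctions (14.6% to 44.9%, at 41 and 28), in Foxn3, a forkhead transcription factor (26.5% to 58.0%, at 38 and 40), and in Fam13c (49.03% to 74.4%, at 69 and 55). Lower units lay in Msi2, an RNA-binding protein of stem cells (71.0% to 58.7%, at 294 and 279), in Ldb3, a muscle Z-disc protein (72.2% to 57.0%, at 208 and 195), in Slc16a7, a monocarboxylate transporter (96.9% to 84.3%, at 88 and 67), and in Pak7, a neuronal kinase (94.1% to 82.9%, at 163 and 154). Of the 10 lower units, 9 were also lower in adipose and 7 in liver, and of the 10 higher units 4 and 5 were higher there. In adipose the class means of all CpGs above 5% were below 0 too, from -0.155 to -0.376 points, and the share over all units was not set beside these counts.

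Among the called CpGs, some chosen after their values were seen show how they relate to the tissues. At 4 of them hypothalamus and liver were partly methylated and adipose almost fully. In Cdh20, which encodes a cadherin for cell adhesion, the CpG at chr1:104886483 had 41.8% of 555 reads in the control and 57.8% of 429 in the BPA pool. Its control levels were 25.4% in liver and 90.9% in adipose, with differences of 6.52 and 1.24 points. The CpG at chr12:6157398 was at 39.0% of 541 and 58.5% of 419 reads, that at chr14:43892650 at 36.8% of 582 and 54.0% of 404, and that at chr3:45920649 at 64.8% of 105 and 92.9% of 70. All 4 were higher in the BPA pool of liver and adipose too, by 3.38 to 12.1 points in liver and 1.24 to 3.40 in adipose. Of these, only the CpG at chr12:6157398 was called in another tissue, liver, where it differed by 7.95 points (adjusted Fisher p = 0.025). The CpGs in Cdh20, at chr12:6157398 and at chr14:43892650 each lay in a unit of 2 CpGs. In hypothalamus the other CpG of these units was higher by only 0.154 to 1.86 points. It also had fewer reads, as the units averaged 320 to 342 control reads per CpG. The CpG at chr3:45920649 was alone in its unit, and it was not called when adjusted over member CpGs alone.

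Other called CpGs differed in how far their neighbours went with them. In Mctp1, a calcium-binding membrane protein of neurons, chr13:76526418 was at 98.1% of 106 reads in the control and 77.2% of 101 in the BPA pool, and at 59.9% in adipose and 21.4% in liver control pools. In Gm46046, a long noncoding RNA, chr8:83741752 was at 57.9% of 202 and 33.1% of 154 reads. The units of these CpGs, of 8 and 14 CpGs, differed by -5.56 and -4.47 points, with CpGs in both directions. The largest difference among the 58, at chr15:88036767, rested on few reads, 83.7% of 49 and 33.3% of 36, and the other CpG of its unit differed by -40.2 points. In the printed window of 4930442E04Rik, which starts within 5 kb of Vax1, a homeobox gene of the developing ventral forebrain, the CpG at chr19:59171669 had 1.04% of 96 reads in the control and 22.8% of 57 in the BPA pool (adjusted Fisher p = 0.043). The 7 other CpGs measured in that window had between 0% and 9.41% in the BPA pool, and the unit of 7 CpGs around it was at 1.37% and 5.44% (unit interval -1.53 to 13.8 points). Adjusted over member CpGs alone, the CpGs at chr8:83741752, chr15:88036767 and chr19:59171669 were not called.

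Genes of hypothalamic function were taken from lists and described by the level over all CpGs in the gene or within 5 kb. With each pool weighting CpGs by its own reads, the 95% counting interval of the difference left out 0 for 18.5% of 17118 protein-coding genes (6.5% higher and 12% lower). With the same weight for a CpG in both pools, an alternative added after the data were seen, it did so for 0.315% (0.146% higher and 0.169% lower), and gene values below use those weights. The median difference over protein-coding genes was 0.224 points, and 11211 of 17118 genes were higher. It followed the level of the gene, from 0.411 points for genes under 5% to -0.0793 for genes between 50% and 80%.

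None of 6 central feeding genes had a called CpG; of all protein-coding genes only 16 (0.0935%) had one, so the count of 0 says nothing particular about them. Pomc was at 4.87% in the control and 6.24% in the BPA pool over 44 CpGs (interval -0.496 to 3.22 points). In its printed promoter window, 5 of the 6 measured CpGs were higher in the BPA pool, with control levels from 5.71% to 23.1% and BPA levels from 13.3% to 32.3%. These rested on 26 to 35 control reads and 26 to 32 BPA reads. Their unit was at 14.9% and 22.8%. The interval of its difference, from -12.1 to 27.4 points, includes 0, so no difference was detected at this depth. Agrp, whose peptide drives feeding, was at 8.79% and 9.14%, and Npy, which acts with it, at 9.61% and 10.6%. Cartpt, the precursor of an appetite-suppressing peptide, was at 19.8% and 21.4%. Hcrt, which encodes the arousal peptide orexin, was at 6.91% and 7.82%, and Pmch, for melanin-concentrating hormone, at 95.4% and 95.5%. All 6 intervals included 0.

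In the feeding list as a whole, 16 of 20 genes were higher and the median difference was 0.506 points. Its genes with the largest difference by pool-specific weights, Cpe, a peptide-processing enzyme, and Lepr, the leptin receptor, differed by 0.0175 and 1.09 points with equal weights. Hormones that act on the pituitary had 9 of 13 genes higher and a median of 0.391 points. In that list Th, the rate-limiting enzyme of dopamine synthesis, was at 74.5% and 69.2% (interval -11.2 to 0.633 points) and Pdyn, the dynorphin precursor, at 59.3% and 63.0%. Developmental transcription factors of the hypothalamus, with a median control level of 3.88%, had 25 of 29 genes higher and a median of 0.350 points. Examples were Dlx1, a homeobox gene of inhibitory neurons, at 5.59% and 6.44%, and Tbx3, a factor of arcuate neurons, at 10.0% and 10.9%. No gene in these 3 lists had an interval without 0.

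Receptors for steroids and related ligands had 19 of 25 genes higher, with a median of 0.299 points. Gper1, a membrane receptor for oestrogen, was at 78.6% and 80.1%, and Ppard, a fatty acid receptor, at 54.6% and 54.3%. Esr1, the main oestrogen receptor of the hypothalamus, chosen here for the known action of BPA, was at 81.0% and 81.3% over 201 CpGs (interval -1.17 to 1.89 points). The DNA methylation machinery had 12 of 18 genes higher (median 0.215), with Dnmt3a, a de novo methyltransferase, at 39.3% and 39.2%, and its cofactor Dnmt3l at 60.7% and 61.1%. Imprinted genes had 23 of 36 higher and a median of 0.357 points. Peg10 was at 64.3% and 67.5%, and Snurf, in the Prader-Willi region, at 36.7% and 39.8%, both with intervals that include 0. Glutamate and GABA receptor genes had 22 of 30 higher (median 0.194), with Grik2 at 55.7% and 55.8% and Grin2b at 54.5% and 54.1%. Clock genes had 14 of 20 higher (median 0.269), with Per1 at 29.2% and 29.8% and Npas2 at 36.6% and 36.8%. Stress and glucocorticoid feedback genes had 8 of 13 higher (median 0.276), with Crhr1, the receptor of corticotropin-releasing hormone, at 28.2% and 27.7% and Sgk1 at 34.7% and 34.9%. Vax1 was the only gene of these 9 lists with a called CpG in or near it, and that CpG was not called when adjusted over member CpGs alone.

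**Figure D5:**
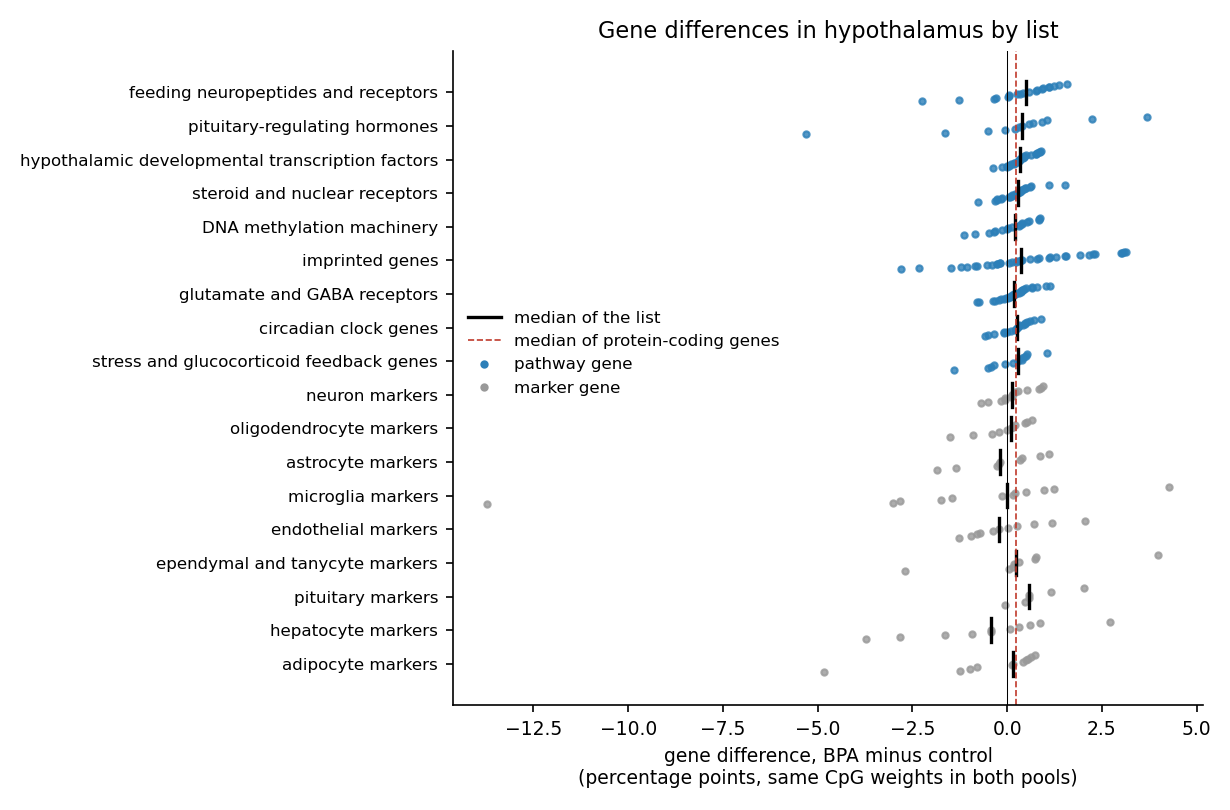
Difference of each list gene (BPA minus control, percentage points, with the same CpG weights in both pools); black bars are list medians and the dashed line is the median of 17118 protein-coding genes, 0.224 points. Most points lie within a few points of 0, and the lowest, at -13.7 points, is the microglia gene Aif1.

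Markers of cell types moved little. Medians were 0.130 points for neurons (10 of 15 genes higher), 0.0933 for oligodendrocytes (7 of 11), -0.193 for astrocytes (4 of 9), 0.00781 for microglia (6 of 12) and -0.201 for endothelium (5 of 11). Ependymal cells and tanycytes had 0.242 (7 of 8), pituitary 0.579 (5 of 6), hepatocytes -0.418 (5 of 11) and adipocytes 0.162 (7 of 11). Only Aif1, a calcium-binding protein of microglia, had an interval without 0. It was at 82.8% in the control and 69.1% in the BPA pool over 5 CpGs with 201 and 229 reads (interval -26.1 to -1.35 points), the lowest of the 17118 differences. C1qb, a complement gene of microglia, was at 85.2% and 82.2% (interval -11.6 to 5.56 points). The part of cell composition in the results above was not tested.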

How the data were processed

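Reduced representation bisulfite sequencing covered 3 control and 3 BPA hypothalamus samples, with adipose and liver as comparison. Per the submitters' processing notes, BSMAP aligned the reads to GRCm38 (mm10). The aligner's version is not given in these sources. The authors deposited 1 table per tissue, in which read counts give the reads on each CpG of each pool, the methylation fraction gives the methylated share of those reads, and a p-value gives Fisher's exact test between pools. Each listed CpG had at least 3 reads in each pool. The tables hold no value per sample. Positions were written 1-based on GRCm38.

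Methylated reads were recomputed as the rounded product of count and fraction. Fisher p-values recomputed here (Python 3.11.15, numba 0.67.0, scipy 1.17.1) lay within 1% of the deposited p-value at 99.94% of 5000 CpGs. Tests were adjusted over all nuclear CpGs, or all units, with 20 reads in both pools, including chromosomes X and Y and the ribosomal stretch. A unit was tested with its read-weighted level and its mean reads per CpG. As PCR copies carry no molecular identifiers, reads are not separate molecules, and all intervals (95%) cover counting error only. Wald tests between tissues had 0.5 added to each cell and took the tissues as independent. The test of units was tested on simulated data.

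Genes came from RefSeq (GRCm38.p6), with body or 5 kb around it, and gene values needed 5 CpGs and 200 reads per pool. Promoter sequences came from RefSeq too, and chromosome 18 was not used for them. The members, lists and tests were chosen with earlier results of these data known. Named were the called unit, the 10 units of at least 3 CpGs with the smallest p in each direction outside the deepest 0.1%, the 6 feeding genes, and up to 2 genes per list with the largest difference by pool-specific weights. Called CpGs, Esr1, the other units with an adjusted p under 0.05 and the pair on chromosome 12 were added after their values were seen. The alternatives tried were other minimum reads and differences, other unit widths, summed reads, scaled tests, adjustment over members, leaving out the deepest CpGs and a correction for nearly unmethylated CpGs.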

Additional observations from a re-analysis of the deposited data

Results flagged for a closer look

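The unit called in A330008L17Rik had a larger log odds ratio in hypothalamus than in adipose by 2.04 (SE 0.567) and than in liver by 2.26 (SE 0.553). It was flagged because a Wald test of these differences passed its threshold. As it was the 1 unit chosen among all by its hypothalamus difference, the choice tilts that test towards a difference, and the values are a description only.

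Among the 36 units with a called CpG, 15 differed from adipose and 10 from liver by the same test, adjusted over all 72 comparisons of these units with the tissues; these units too were chosen by their hypothalamus difference, so the counts are a description.

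Data outside the member CpGs also carried a difference between pools. The share of methylated reads at 13 mitochondrial CpGs was 1.01% in the BPA pool and 0.524% in the control pool of hypothalamus, and 7 of 7 such CpGs with at least 10000 reads were higher.

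In the ribosomal RNA stretch of chromosome 17, which was left out of the members, 442 CpGs averaged 26.7% in the control and 28.5% in the BPA pool of hypothalamus, a mean difference of 1.78 points, with 358 CpGs higher and 84 lower. The mean differed by -2.87 points in adipose, where 93 CpGs were higher and 419 lower. In liver it differed by -0.994 points, although the median over its CpGs was 1.41 points and 301 of 398 were higher.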

How the results depend on the processing

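No paired analysis was possible because the deposited columns hold 1 pool per group and no value per sample; for the same reason no replicate was left out in turn and no replicate block was fitted. Of the planned settings, the count of 58 called CpGs became 112 without a minimum difference, 28 when adjusted over members only, and 25 with a test scaled by the excess spread; 10 or 50 reads, 10 points, leaving out the deepest 0.1% of CpGs, or the correction for nearly unmethylated CpGs gave 40 to 65. The count of 1 called unit became 2 at 50 reads, 6 without a minimum difference and 18 with the scaled test. For units the scaling factor was 0.783, which loosened the test, while for CpGs it was 1.16, which tightened it. With summed reads the count of called units was 1905 (1811 with summed reads and the same weights in both pools). It was 0 when adjusted over members only or when CpGs within 200 bp were joined. The mean level difference of 0.0541 points became 0.111 points when CpGs were weighted by reads and -0.102 points after the correction for nearly unmethylated CpGs. The difference of 0.393 points at nearly unmethylated CpGs ranged from 0.391 to 0.402 points over its alternatives. With summed reads, the 25 comparisons between tissues that passed at units with a called CpG became 58. Protein-coding genes with an interval that left out 0 numbered 3164 with pool-specific weights and 54 with equal weights. For the 25 units named by the rule or by their adjusted p, 129 of 148 settings kept direction and side of the threshold, 18 units passed only with summed reads, 1 lost its call, and none changed direction. The counts adjusted over members only differ from the main ones solely in the CpGs or units over which p-values were adjusted. The cause of the other changes was not tested. Calls differed by depth class: at 20 to 49 reads in the smaller pool, 2 of 274474 CpGs were called, and at 500 or more reads 13 of 15639; what sets these shares was not tested.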
